A study of Homo sapiens with 24 samples.

Results

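PC9 cells treated with almonertinib and paclitaxel together were compared with PC9 control cells across all measured genes. The comparison rested on 6 of the 24 libraries of the series, 3 labelled as the combination of both drugs and 3 labelled control, and the labels alone chose them. PC9 is an established human lung adenocarcinoma line that carries an activating deletion in the gene of the epidermal growth factor receptor, EGFR. RNA of every group was taken after 24 h, and no other treatment or vehicle is named for the control. PC9 cells under 2 nM almonertinib alone and under 0.3 nM paclitaxel alone, 3 libraries each, were used as comparators. The labels state no dose for either drug within the combination, so each difference between the combination and a single drug may include a difference in dose. Nothing in the labels ties the 3 libraries of each group to separate cultures, and their spread, on which all p-values rest, could be technical alone.

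Almonertinib binds covalently to mutant EGFR and blocks its kinase. Active EGFR signals through RAS, RAF, MEK and ERK to AP-1 and ETS transcription factors and through PI3K and AKT, which keep FOXO transcription factors out of the nucleus. Paclitaxel binds beta-tubulin, stabilises microtubules and disturbs the mitotic spindle. Cells that stop dividing lower the genes that E2F factors drive at the start of S phase and later those of mitosis.

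The combination libraries held 21261748 to 21557798 counts and the control libraries 15708473 to 20358899. A combination library detected 14361 to 14402 genes and a control library 14064 to 14232, and the exact permutation test of this difference gave p = 0.1, the smallest that 3 against 3 libraries allow. All 7 epithelial markers of the line were expressed, with summed levels of 24283 to 25521 counts per 1000000 (CPM) under the combination and 22640 to 25514 CPM in the control, and KRT19 was the only one called. Of the markers of other cells, 3 of 9 fibroblast, 3 of 7 endothelial and 3 of 10 leukocyte genes passed the filter on low counts. The leukocyte gene PTPRC, the T cell gene CD3E, the endothelial genes PECAM1 and KDR and the fibroblast genes COL1A2 and DCN did not pass it. Summed over each whole marker list, the levels were 24 to 24.6 CPM under the combination and 13.5 to 19 CPM in the control for fibroblasts, 162 to 169 CPM under the combination and 123 to 138 CPM in the control for endothelium, and 7.41 to 8.05 CPM under the combination and 4.24 to 5.03 CPM in the control for leukocytes. In these lists 4, 3 and 4 genes had no count in any of the 6 libraries. The 6 tested markers that rose were ACTA2, COL1A1, VWF, CDH5, EGFL7 and CD14, and the part of such RNA in the results was not tested. CDH5 lost its call without combination library 1 or control library 2, and EGFL7 without any 1 of the 6 libraries. Control library 1 stood apart from the other control libraries across genes, with a chi-square of counts per degree of freedom of 13.8 against library 2 and 15.2 against library 3, where libraries 2 and 3 differed by 3.67. Among the combination libraries the same measure was 5.24 to 8.56. Across genes, the Spearman correlation of transcript length with a library's deviation from the PC9 mean was 0.0673 ± 0.169 under the combination and −0.174 ± 0.0471 in the control (SD, n = 3, exact permutation p = 0.1, also the smallest possible), with combination library 2 highest at 0.245. The part of either in the results was not tested, and counts that changed without one of these libraries are given beside the result.

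Of 12796 genes tested in edgeR, 6489 (50.7%) were called at an adjusted p under 0.05, 3156 of them higher (24.7%) and 3333 lower (26%) under the combination. At least 2-fold changes were called in 965 genes that were higher (7.54%) and 636 that were lower (4.97%). The 3 combination libraries lay wholly above or wholly below the 3 control libraries in 8097 genes (63.3%). The median log2 fold change of all tested genes was 0.004 and the median of its absolute value 0.386. Below, rose and fell are used only of called genes. Counts within a list against the control are to be read beside the 24.7% higher and 26% lower of all tested genes. Fold changes are log2 of the combination over the control unless another pair is named, ± a rough standard error. Levels are CPM in the order of library 1, 2 and 3. Because these are bulk samples, fewer cells of one kind and less RNA per cell cannot be told apart.

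**Figure D1:**
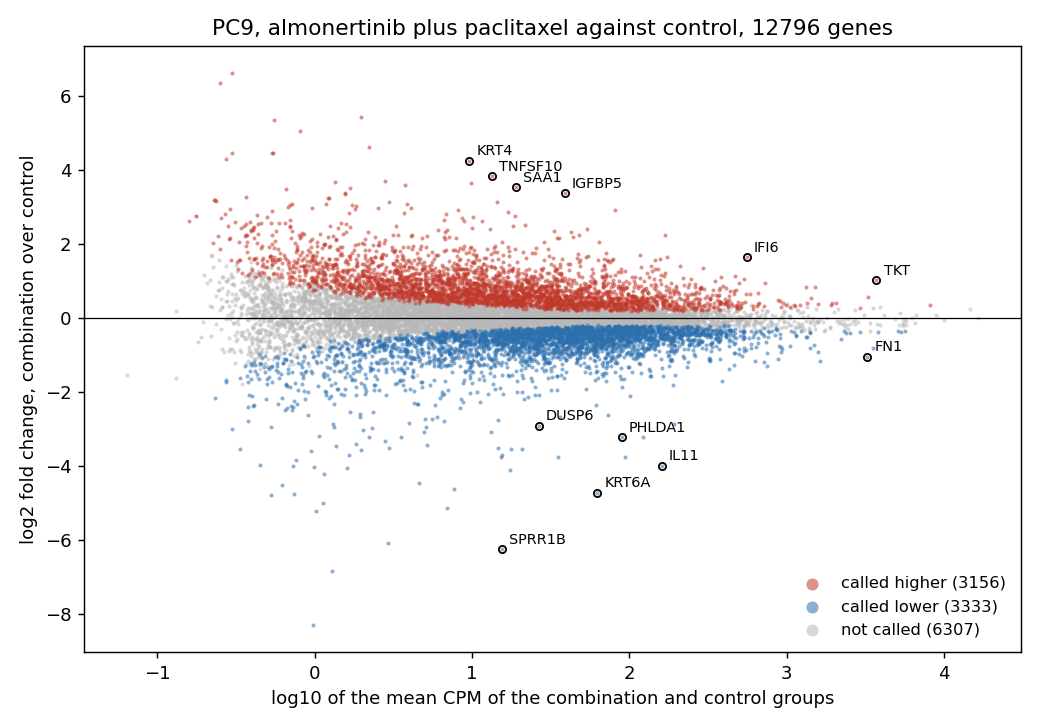
Each point is one of the 12796 tested genes, with the log10 of its mean CPM over the combination and control groups across and its log2 fold change, combination over control, upward. Red points were called higher (3156), blue points lower (3333) and grey points not called. KRT4, TNFSF10 and SAA1 stand near 4 and SPRR1B near −6, and TKT and FN1 are changed genes at the high end of the CPM scale.

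Output genes of EGFR signalling fell together. Of 38 tested genes of EGFR and MAPK output, 29 fell and 2 rose, with a median log2 fold change of −0.95, against 26% of all tested genes lower and 24.7% higher. Of the list, 19 fell at least 2-fold, as 4.97% of all tested genes did. PHLDA1 (chr12:76025447-76033932, GRCh38), an immediate target of the ERK pathway, had 15.8, 19.2 and 17 CPM under the combination and 165, 161 and 161 CPM in the control. The 2 groups were far apart and each was tight, with a log2 fold change of −3.23 ± 0.09 (edgeR adjusted p = 6.05e-13). DUSP6, the phosphatase that switches off ERK, stood at 5.8, 6.18 and 6.74 CPM against 42.4, 47.5 and 51 CPM in the control, a log2 fold change of −2.91 ± 0.14 (edgeR adjusted p = 1.34e-10). EPHA2, a receptor kinase that ERK induces, stood at 37.2, 39.4 and 36.8 CPM against 173, 155 and 162 CPM in the control (log2 fold change −2.11 ± 0.10). In all 3 genes the lowest control library was more than 3 times the highest combination library. The 2 risers of the list, FOS (0.56 ± 0.22) and KLF5 (0.30 ± 0.11), lost their calls in 6 alternatives each. FOS lost it without any 1 of the libraries except control library 3, and KLF5 without any 1 except combination library 3.

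The EGF family ligands, which EGFR itself induces and which feed back on the receptor, fell in 6 of 10 tested members, with a median of −1.29. Amphiregulin (AREG) had 2, 2.24 and 2.28 CPM under the combination and 30.4, 29.7 and 26.1 CPM in the control (−3.72 ± 0.14, edgeR adjusted p = 1.47e-11). Heparin-binding EGF (HBEGF) had 2.33, 2.84 and 3.15 CPM under the combination and 29.9, 33.4 and 34.6 CPM in the control (−3.55 ± 0.15). Epiregulin (EREG) had 0.856, 1.1 and 0.97 CPM under the combination and 7.81, 8.06 and 5.21 CPM in the control (−2.85 ± 0.26). For each of these ligands no combination library came near a control library. Of all tested genes 63.3% showed no overlap. The one member that rose was EGF (1.49 ± 0.39), from few counts at 1.51 ± 0.12 CPM under the combination and 0.525 ± 0.215 CPM in the control (SD, n = 3). A stricter filter on low counts left 3 falling ligands and no rising one.

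Among the receptors, 2 partners of EGFR rose. ERBB3, the kinase-poor receptor that couples to PI3K, had 201, 198 and 188 CPM under the combination and 71.8, 86.1 and 86.1 CPM in the control (1.27 ± 0.09, edgeR adjusted p = 1.29e-08). ERBB2 had 201, 186 and 188 CPM under the combination and 90.8, 105 and 109 CPM in the control (0.92 ± 0.09, edgeR adjusted p = 7.79e-07). CBLB, a ubiquitin ligase that removes activated receptors, rose by 1.43 ± 0.11. EGFR itself had 600, 610 and 491 CPM under the combination and 733, 673 and 619 CPM in the control and was not called although its groups did not overlap (−0.25 ± 0.13, edgeR adjusted p = 0.116). Of the 17 tested ERBB receptors and regulators, 6 rose and 1 fell (median 0.21), and the one that fell was ERRFI1, an inhibitor of EGFR (−0.73 ± 0.10).

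Other receptor kinases moved both ways, with 4 of 20 higher and 7 lower (median −0.07). The insulin receptor gene INSR had 23.1 ± 1.67 CPM under the combination and 10.7 ± 0.296 CPM in the control (SD, n = 3, log2 fold change 1.11 ± 0.16), and IGF1R rose by 0.59 ± 0.12. AXL, a receptor linked to tolerance of EGFR inhibitors, fell to 42, 39.2 and 41.3 CPM, against 89.6, 72.9 and 76.9 CPM in the control (−0.97 ± 0.09). MET had 10.3, 13.7 and 10.9 CPM under the combination and 17.7, 17.5 and 10.5 CPM in the control, its groups overlapped and it was not called (−0.39 ± 0.19, edgeR adjusted p = 0.0979). Binding proteins of insulin-like growth factors split. IGFBP5 rose to 72.9, 74.2 and 64.9 CPM, against 4.12, 8.19 and 8.34 CPM in the control (3.38 ± 0.18, edgeR adjusted p = 6.96e-10). IGFBP3 rose to 122, 71.3 and 80.6 CPM, against 13.5, 20.1 and 17.7 CPM in the control (2.42 ± 0.29). IGFBP6 and the adaptor gene IRS1 fell (−0.93 ± 0.17 and −1.08 ± 0.16).

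FOXO targets and brakes on PI3K rose. Of 27 tested genes 21 rose and 2 fell, 11 rose at least 2-fold and the median was 0.92. FBXO32, a ubiquitin ligase subunit and classical FOXO target, had 36, 29.9 and 31.9 CPM under the combination and 8.13, 10.7 and 9.8 CPM in the control (1.78 ± 0.13, edgeR adjusted p = 2.36e-08). YPEL3, a gene that slows growth, had 109, 103 and 117 CPM under the combination and 30.6, 39.3 and 42.4 CPM in the control (1.55 ± 0.13). DEPP1, a FOXO target outside the list that was among the 15 largest risers, had 140, 138 and 154 CPM under the combination and 13.1, 21.5 and 22.7 CPM in the control (2.93 ± 0.16). The groups did not overlap in any of these, nor in 63.3% of all tested genes, and the rule that named DEPP1 required no overlap. The 2 members that fell, TRIB1 (−0.29 ± 0.09) and CITED2 (−0.42 ± 0.13), both lost their calls without combination library 2, and CITED2 also without combination library 3 or control library 2 or 3.

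Most transcription factors of the immediate early response fell. Of 23 tested AP-1 and immediate early factors 18 fell, 9 of them at least 2-fold, and 2 rose (median −0.61). The risers were BATF2 and FOS. FOSL1, an AP-1 subunit kept up by ERK, had 21.5, 24.7 and 25.6 CPM under the combination and 281, 190 and 196 CPM in the control (−3.22 ± 0.15, edgeR adjusted p = 9.01e-11). JUN stood at 71, 67.3 and 68.1 CPM against 144, 149 and 152 CPM in the control (−1.11 ± 0.07). MYC, which drives growth and ribosome production, had 64.4, 69.3 and 69.8 CPM under the combination and 233, 177 and 197 CPM in the control (−1.58 ± 0.10, edgeR adjusted p = 7.91e-09), and MXD4 and MXI1, whose products oppose MYC, rose by 1.25 ± 0.10 and 0.88 ± 0.13. The ETS factors ETS1 (−1.77 ± 0.17), ETV5 (−1.37 ± 0.09) and ETV4 (−0.88 ± 0.11) fell, whereas the epithelial ETS factors ELF3 and SPDEF rose by 1.41 ± 0.12 and 0.98 ± 0.16. ELF3 had 324, 287 and 307 CPM under the combination and 101, 120 and 125 CPM in the control.

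**Figure D2:**
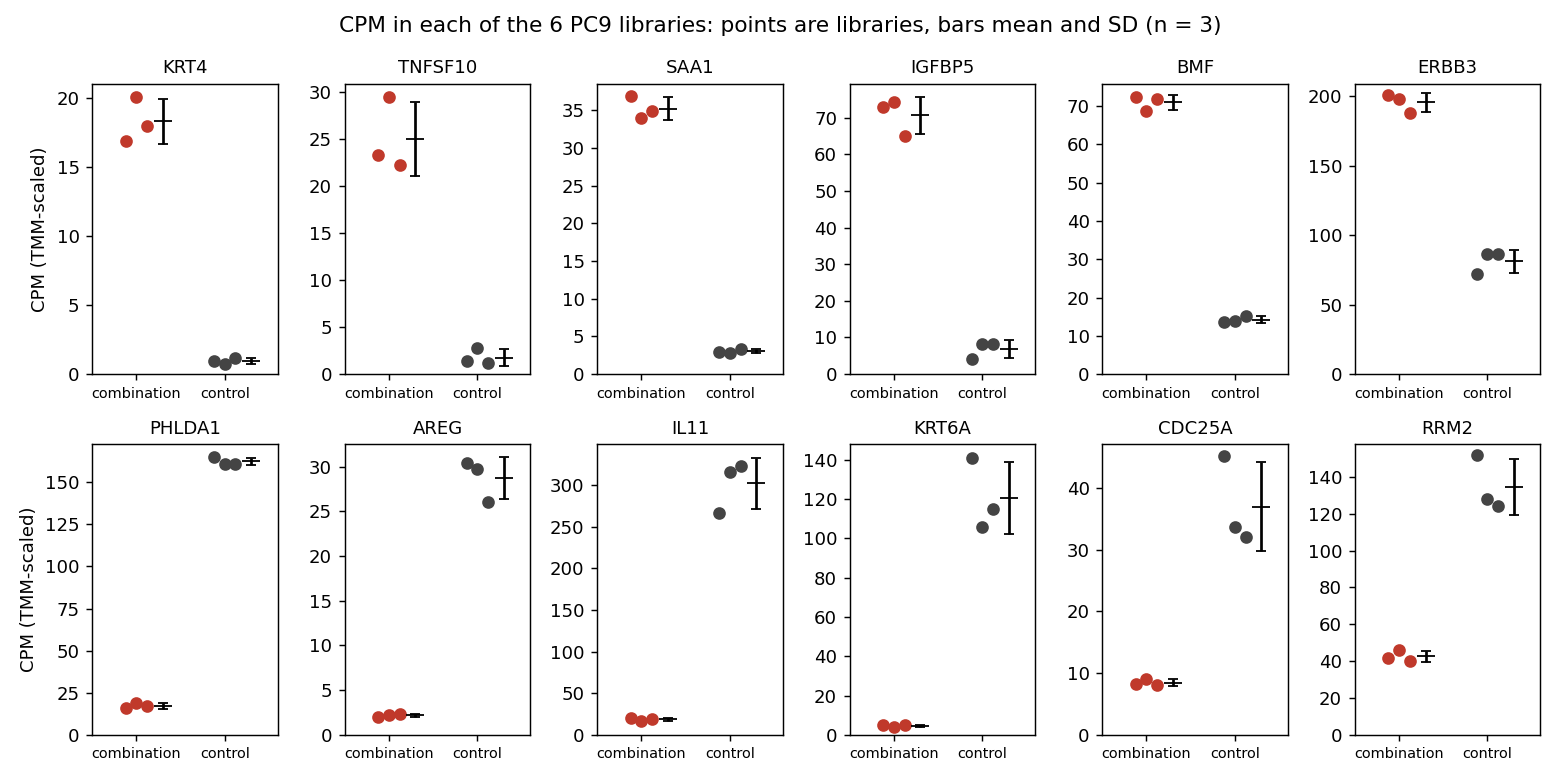
CPM of 12 genes in each library, with the 3 combination libraries left in red and the 3 control libraries right in grey, and bars for the mean and SD (n = 3). The upper row holds genes that rose and the lower row genes that fell, and in none of the 12 do the groups overlap. The rule for the largest rises and falls, which gave some of these genes, required no overlap. Of all tested genes 63.3% showed none.

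The genes of S phase entry and DNA replication fell almost without exception. Of 55 tested members 51 fell and none rose, 26 fell at least 2-fold and the median was −0.91. Their summed level was 1794 to 1896 CPM in the combination libraries and 3830, 3263 and 3355 CPM in control libraries 1, 2 and 3, and 45 members fell without control library 1. CDC25A, the phosphatase that activates CDK2, had 8.18, 9.11 and 8.1 CPM under the combination and 45.2, 33.7 and 32 CPM in the control (−2.13 ± 0.14, edgeR adjusted p = 6.15e-09). RRM2, a subunit of ribonucleotide reductase, had 41.7, 46 and 39.9 CPM under the combination and 152, 128 and 124 CPM in the control (−1.66 ± 0.10, edgeR adjusted p = 1.92e-09). FEN1, the flap endonuclease of the lagging strand, had 42, 44 and 39.9 CPM under the combination and 113, 95 and 101 CPM in the control (−1.30 ± 0.09). The 4 members that were not called were CDC7, PRIM1, DBF4 and CDT1, with CDT1 the highest of the list at 0.16.

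Promoters of this group are shown because its members fell together. In RefSeq promoters (GRCh38.p14, 250 bases before to 50 after the start, available for 46 of the 55 genes), an E2F word (TTTCCCGC, TTTGGCGC, TTTCGCGC or TTTGCCGC on either strand, where words on opposite strands may overlap) occurred in 22 of 46, or 47.8%. The same words occurred in 3.33% of all 27305 promoters and in 5.32% of the promoters of tested genes. In genes called at least 2-fold lower the share was 6.83%. The list holds genes that E2F factors are known to drive, so a high share was set by its choice. CDT1, which was not called, also held a word. Promoters of CDC25A (chr3:48188368-48188667, minus strand) and of UHRF1, which maintains DNA methylation through S phase (chr19:4909251-4909550, plus strand), read as follows in gene direction, with the E2F word in capitals. In UHRF1 the word lies on the opposite strand, so its reverse complement is printed. A match is a description of letters and not a measured binding site.
CDC25A: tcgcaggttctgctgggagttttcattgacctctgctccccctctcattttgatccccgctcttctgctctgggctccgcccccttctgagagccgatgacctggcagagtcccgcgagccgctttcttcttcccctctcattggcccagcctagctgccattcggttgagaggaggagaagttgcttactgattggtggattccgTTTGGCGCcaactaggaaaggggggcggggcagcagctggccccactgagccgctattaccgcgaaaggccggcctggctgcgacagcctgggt
UHRF1: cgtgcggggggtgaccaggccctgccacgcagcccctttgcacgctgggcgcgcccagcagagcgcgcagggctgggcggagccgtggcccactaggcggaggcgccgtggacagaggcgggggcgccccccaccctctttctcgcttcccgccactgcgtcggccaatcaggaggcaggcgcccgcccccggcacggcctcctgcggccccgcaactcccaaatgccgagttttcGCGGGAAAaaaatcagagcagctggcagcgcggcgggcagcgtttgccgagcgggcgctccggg
Counted from the start of the gene, the word of CDC25A began at position −44 and that of UHRF1 at position −14. UHRF1 had 28.5, 31.4 and 24.5 CPM under the combination and 87.1, 72.6 and 71.5 CPM in the control (−1.45 ± 0.11).

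Among cyclins and CDK inhibitors of G1, CCND1, the cyclin D1 gene, fell to 223, 242 and 218 CPM, against 383, 325 and 338 CPM in the control (−0.62 ± 0.09). CDKN1A, which encodes p21, had 84.4, 80.3 and 83.2 CPM under the combination and 200, 272 and 267 CPM in the control (−1.57 ± 0.15, edgeR adjusted p = 5.18e-07). CDKN1B, which encodes p27 and is a FOXO target, had 45.9, 44.5 and 44.1 CPM under the combination and 33.4, 32 and 32.5 CPM in the control (0.46 ± 0.09). The pocket protein gene RBL2 and the cyclin G2 gene CCNG2, both marks of resting cells, rose by 0.88 ± 0.15 and 0.84 ± 0.17. The inhibitor genes thus moved in opposite directions.

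Mitotic genes fell less evenly. Of 45 tested members 24 fell and 4 rose, with a median of −0.41 and 2 at least 2-fold lower. MYBL2, a transcription factor of the G2 programme, had 394, 389 and 389 CPM under the combination and 963, 796 and 853 CPM in the control (−1.16 ± 0.12). AURKA, the spindle pole kinase, had 33.5, 34.2 and 33.3 CPM under the combination and 69.7, 65.3 and 60.1 CPM in the control (−0.95 ± 0.09). CCNB1, the mitotic cyclin B1, had 76.6, 74.2 and 70.8 CPM under the combination and 134, 132 and 136 CPM in the control (−0.86 ± 0.08). All 3 were separated between the groups, as were 63.3% of all tested genes. The proliferation marker MKI67 was not called (−0.35 ± 0.15, edgeR adjusted p = 0.0684), with 70.3, 79.9 and 57.5 CPM under the combination and 94.9, 87.3 and 82.2 CPM in the control. The 4 risers were SGO2 (0.95 ± 0.25), SMC2 (0.71 ± 0.24), CENPF (0.86 ± 0.27) and NEK2 (0.44 ± 0.15), of which NEK2 was named after its values were seen. Only 1 member rose without combination library 2 or without control library 3.

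A CHR word (TTTGAA or TTCGAA on either strand), the element of cell cycle genes that are switched on late, stood in 29 of the 40 available promoters of mitotic genes (72.5%), against 16.6% of all promoters and 10.9% of those of tested genes. In genes called at least 2-fold lower the share was 15.3%. The list holds known late cell cycle genes, so a high share was set by its choice. Holders of the word did not move alike. MAD2L1, PLK1 and CDC20 fell, MKI67, TOP2A, BUB1, BUB1B, ANLN and HMMR were not called, and SMC2 and CENPF rose. The promoter of MAD2L1, a spindle checkpoint gene that was below both single drugs and the control, is given (chr4:120066799-120067098, minus strand), with the CHR word in capitals.
MAD2L1: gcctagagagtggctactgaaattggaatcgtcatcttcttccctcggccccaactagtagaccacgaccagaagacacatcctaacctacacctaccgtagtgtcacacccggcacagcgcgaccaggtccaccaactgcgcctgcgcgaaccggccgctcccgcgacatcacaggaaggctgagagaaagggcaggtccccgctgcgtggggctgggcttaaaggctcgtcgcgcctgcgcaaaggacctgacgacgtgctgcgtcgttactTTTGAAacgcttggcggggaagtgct
MAD2L1 had 5.66, 4.67 and 4.7 CPM under the combination, 8.18, 11.2 and 8.41 CPM under almonertinib, 16.7, 13.7 and 14 CPM under paclitaxel and 11.5, 10.7 and 9.45 CPM in the control. Its log2 fold change was −1.08 ± 0.16 against the control, −0.89 ± 0.16 against almonertinib and −1.56 ± 0.16 against paclitaxel (edgeR adjusted p = 4.25e-05, 0.00106 and 1.43e-06). Its combination libraries lay below every other PC9 library. MAD2L1 was named by the rule for genes furthest below both single drugs and the control, so this order followed from that choice.

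The target of paclitaxel, tubulin, was lower at the RNA level. Of 14 tested tubulin genes 11 fell and 1 rose, with a median of −0.76. Against the control, the tubulin median was −0.71 under almonertinib alone, beside 0.031 for all tested genes. Paclitaxel alone lowered 9 and raised 1 (median −0.57), against 28% and 27% of all tested genes. The combination was lower than almonertinib in 2 and higher in 1 (median 0.02), against 9.74% and 10.3% of all tested genes. It was lower than paclitaxel in 5 and higher in 1 (median −0.22), against 22.4% and 21.7%. Reads of near-identical tubulin genes may be split between them, so single members are uncertain. TUBA1B had 1033, 932 and 1030 CPM under the combination and 2465, 2107 and 2191 CPM in the control (−1.17 ± 0.11). TUBB, a beta-tubulin gene, had 1855, 1616 and 1903 CPM under the combination and 2828, 2472 and 2664 CPM in the control (−0.57 ± 0.11), and TUBB4B had 798, 742 and 795 CPM under the combination and 1363, 1248 and 1328 CPM in the control (−0.75 ± 0.10). TUBG1, the gamma-tubulin of centrosomes, fell (−0.88 ± 0.10). TUBA1A was the exception that rose, with 30.9, 24.7 and 32.7 CPM under the combination and 9.59, 17.3 and 15.4 CPM in the control (1.07 ± 0.20). TUBB3, the beta-tubulin isotype linked to taxane resistance, was weakly expressed at 1.22 ± 0.541 CPM under the combination and 1.09 ± 0.359 CPM in the control and was not called (edgeR adjusted p = 0.752). The drug pump gene ABCB1 did not pass the filter on low counts and has no value here.

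Among 20 tested kinesins, the motors that walk on microtubules, 8 rose and 6 fell (median 0.21). KIF18B, KIF2C and KIFC1, which act on mitotic microtubules, fell (−0.93 ± 0.09, −0.80 ± 0.08 and −0.58 ± 0.10). KIF3B and KIF13B, which carry cargo, rose by 0.68 ± 0.12 and 0.50 ± 0.09, with 50.8, 59.2 and 51.7 CPM of KIF3B under the combination and 33.1, 36.3 and 31.7 CPM in the control. KIF20B, a kinesin of cell division, also rose, by 1.27 ± 0.29. Without combination library 2 or without control library 3, 5 kinesins rose.

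KIF3B also serves the primary cilium, a microtubule antenna that cells build when they leave the cycle. Of 39 tested ciliary genes 16 rose and 3 fell (median 0.44). A stricter filter on low counts, which tests fewer genes, left 7 risers, and 1 gene fell without combination library 1 or 2 or without control library 3. PTCH1, the Hedgehog receptor and a target of its own pathway, had 21.1, 21.8 and 20.3 CPM under the combination and 9.38, 9.13 and 8.69 CPM in the control (1.22 ± 0.11). The transport genes IFT172 and IFT81 rose by 1.15 ± 0.14 and 1.64 ± 0.23. GLI2, an effector of Hedgehog signalling, fell (−1.21 ± 0.15), with 4.71, 4.9 and 4.41 CPM under the combination and 11.9, 10.3 and 10.2 CPM in the control. In the same list GLI1 was not called, and SMO and GLI3 did not pass the filter on low counts.

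Repair by homologous recombination moved with replication in part. Of 33 tested members 12 fell and 5 rose (median −0.31). RAD54L, a motor protein of strand exchange, had 27.8, 28.8 and 26.6 CPM under the combination and 46.1, 44.2 and 43.2 CPM in the control (−0.68 ± 0.09), and XRCC3 fell (−0.80 ± 0.11). TP53BP1 and NBN, which act at the break before resection is complete, rose by 0.61 ± 0.12 and 0.93 ± 0.19. Without combination library 2 only 2 members rose, and without control library 3 only 3.

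Targets of p53 were divided, with 7 of 20 higher and 6 lower (median 0.09). BTG2, an antiproliferative gene, had 19.3, 20.2 and 19.3 CPM under the combination and 4.69, 5.17 and 6.33 CPM in the control (1.87 ± 0.16). AEN, an apoptosis nuclease, had 20.6, 20.3 and 20.2 CPM under the combination and 106, 102 and 101 CPM in the control (−2.34 ± 0.09, edgeR adjusted p = 1.47e-11). GDF15, a stress cytokine, had 34.1, 33.9 and 33.5 CPM under the combination and 127, 97.5 and 104 CPM in the control (−1.70 ± 0.14). No shared direction was present among these targets.

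The machinery of growth was lower. Of 49 tested ribosome biogenesis genes 38 fell, 11 of them at least 2-fold, and none rose (median −0.68). Their summed level was 2816, 2887 and 2769 CPM under the combination and 5056, 4063 and 4152 CPM in the control, highest in control library 1, and 36 fell without that library. NOP56, a core protein of box C/D snoRNPs, had 75.4, 73.2 and 74.3 CPM under the combination and 229, 179 and 176 CPM in the control (−1.39 ± 0.10). BOP1, of the large subunit assembly complex, fell (−1.43 ± 0.11), as did NOP16 (−1.52 ± 0.12). Ribosomal protein genes themselves were close to the control, with 6 of 58 lower, 1 higher and a median of −0.14, and 2 were lower without combination library 2 and 3 without control library 3. The single riser was lost without combination library 1 or 3 or control library 2 or 3. The proteasome fell in 21 of 29 tested subunit genes with none higher (median −0.40). PSMD2, of the regulatory particle, had 540, 482 and 507 CPM under the combination and 1092, 888 and 973 CPM in the control (−0.95 ± 0.10).

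Among cytosolic chaperones 8 of 18 fell and 1 rose (median −0.31). HSPA8, the constitutive Hsp70, had 418, 457 and 436 CPM under the combination and 1096, 934 and 945 CPM in the control (−1.18 ± 0.11). The Hsp90 cochaperone FKBP4 fell (−1.12 ± 0.10). In the respiratory chain 17 of 43 nuclear-encoded genes fell and 1 rose (median −0.18), and 11 fell without combination library 2. The riser was lost without combination library 3 or control library 1 or 2. CYCS, which encodes cytochrome c, had 30.6, 30.5 and 31.9 CPM under the combination and 88.3, 76.1 and 74.9 CPM in the control (−1.36 ± 0.11). The share of counts in mitochondrially encoded genes was 1.15 ± 0.137% under the combination and 1.3 ± 0.0792% in the control (SD, n = 3, exact permutation p = 0.3).

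**Figure D3:**
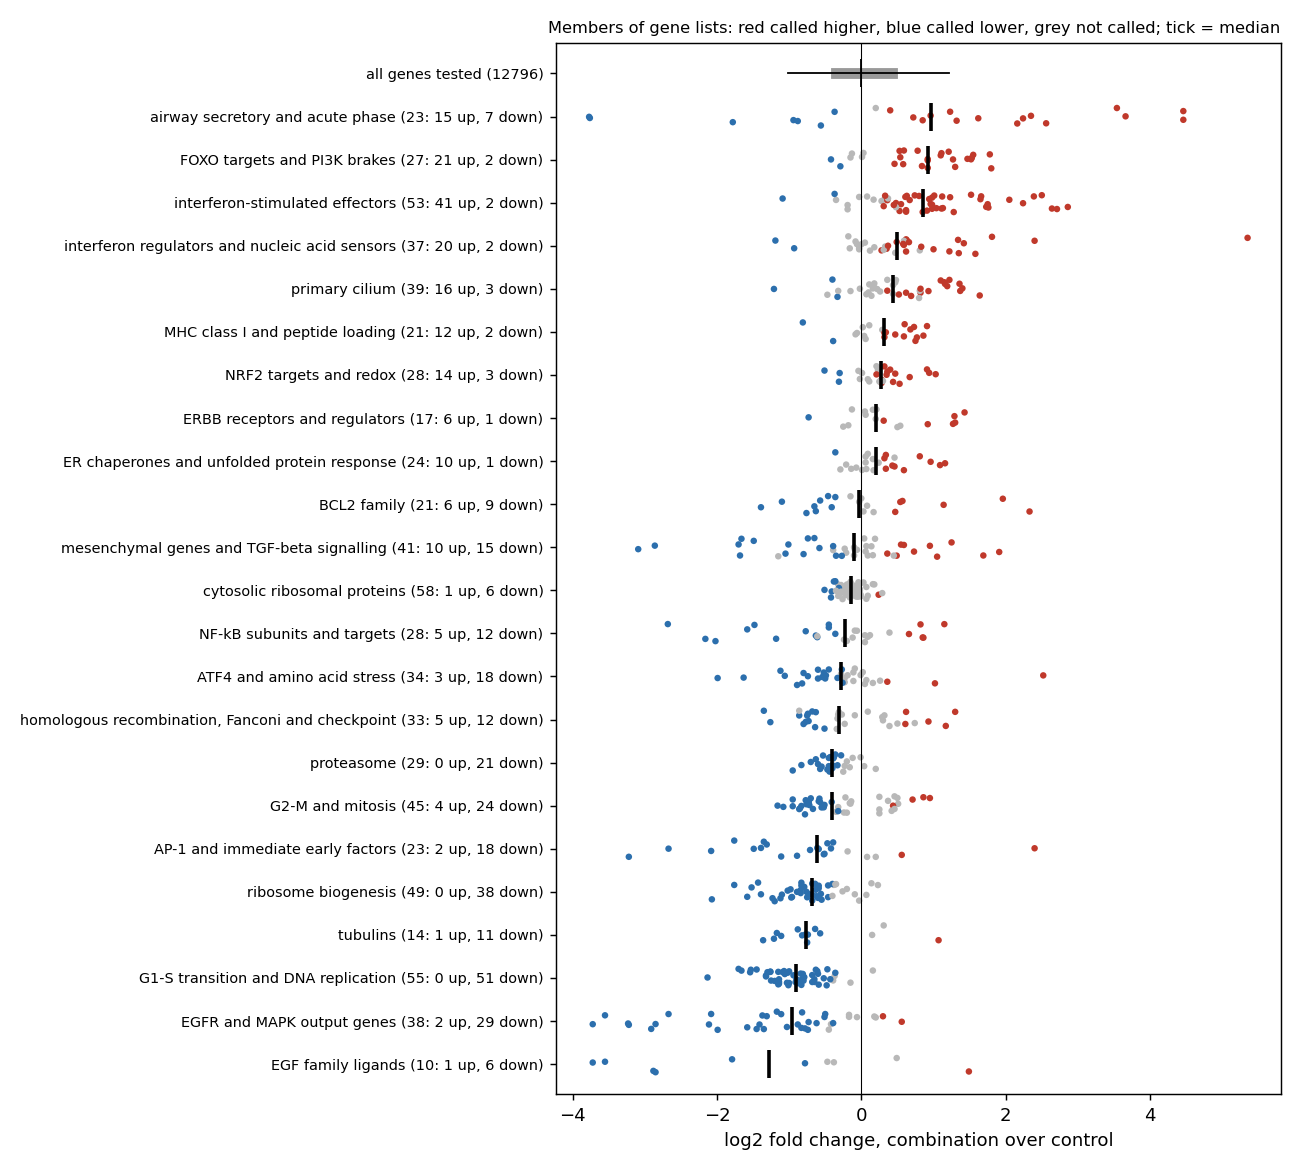
Members of several gene lists, with the log2 fold change of the combination over the control across and 1 row per list. Red points were called higher, blue points lower, grey points were not called, and the vertical tick is the median of the tested members. The top bar gives all 12796 tested genes, with the thick part from the lower to the upper quartile. Of the lists drawn, EGF family ligands, EGFR and MAPK output and S phase genes have the lowest medians (−1.29, −0.95 and −0.91), and airway secretory genes, FOXO targets and interferon effectors the highest (0.96, 0.92 and 0.85).

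Interferon-stimulated genes rose as a group. Interferons bind their receptors and activate transcription factors of the STAT and IRF families, which switch on antiviral effectors through interferon-stimulated response elements. Of 53 tested effectors 41 rose and 2 fell, 20 rose at least 2-fold and the median was 0.85. IFI6, a mitochondrial survival factor, had 850, 838 and 841 CPM under the combination and 186, 313 and 308 CPM in the control (1.65 ± 0.16, edgeR adjusted p = 5.91e-07). IFITM1, which blocks viral entry at membranes, had 264, 289 and 284 CPM under the combination and 35, 61.5 and 81.1 CPM in the control (2.24 ± 0.21). LAMP3, a lysosomal protein that interferon induces, had 44.2, 48.7 and 44.9 CPM under the combination and 8.96, 12.4 and 12.2 CPM in the control (2.05 ± 0.12). None of these overlapped between the groups, nor did 63.3% of all tested genes. Control library 1 was the lowest control library in each of the 3. IFITM1, IFITM2 and IFITM3 are near-identical neighbours, so reads may be shared among them.

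Regulators of the response rose in 20 of 37 genes and fell in 2 (median 0.49). STAT2 had 129, 123 and 129 CPM under the combination and 39.6, 53.5 and 57.3 CPM in the control (1.34 ± 0.11), and IRF7, the amplifier of interferon production, had 113, 121 and 117 CPM under the combination and 29.6, 42.2 and 45.3 CPM in the control (1.58 ± 0.14). BATF2 had 21.4, 23.3 and 20.4 CPM under the combination and 2.5, 4.63 and 5.42 CPM in the control (2.40 ± 0.18). The 2 that fell were CGAS, the sensor of cytosolic DNA, and the interferon gene IFNL1. CGAS had 7.32, 10.7 and 10.2 CPM under the combination and 21.8, 21.5 and 21.1 CPM in the control (−1.19 ± 0.14). IFNL1 had 119, 113 and 125 CPM under the combination and 117, 295 and 271 CPM in the control, and control library 1 overlapped the combination (−0.93 ± 0.23, edgeR adjusted p = 0.00328).

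Promoters are shown here because 1 element was common to the list while its members did not all move alike. The core of the interferon-stimulated response element (TTTCNNTTT on either strand) stood in 31 of the 39 available promoters of the effectors (79.5%), against 10.6% of all promoters and 6.89% of those of tested genes. In genes called at least 2-fold higher the share was 9.63%. The list holds known interferon-stimulated genes, so a high share was set by its choice. IFI6 (chr1:27672143-27672442, minus strand) and IFITM1 (chr11:313790-314089, plus strand) rose, and ISG20, an exonuclease for viral RNA (chr15:88638766-88639065, plus strand), fell. The cores are in capitals.
IFI6: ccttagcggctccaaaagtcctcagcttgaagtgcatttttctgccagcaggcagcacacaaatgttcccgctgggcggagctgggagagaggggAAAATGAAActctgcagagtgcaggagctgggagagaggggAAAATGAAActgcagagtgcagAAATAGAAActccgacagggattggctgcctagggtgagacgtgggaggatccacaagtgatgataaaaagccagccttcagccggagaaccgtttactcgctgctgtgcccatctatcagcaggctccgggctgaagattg
IFITM1: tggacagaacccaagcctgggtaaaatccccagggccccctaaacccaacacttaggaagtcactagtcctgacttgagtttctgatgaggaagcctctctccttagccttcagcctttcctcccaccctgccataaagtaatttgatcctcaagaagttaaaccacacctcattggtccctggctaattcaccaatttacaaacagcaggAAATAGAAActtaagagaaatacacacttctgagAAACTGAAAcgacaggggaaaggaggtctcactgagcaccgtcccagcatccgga
ISG20: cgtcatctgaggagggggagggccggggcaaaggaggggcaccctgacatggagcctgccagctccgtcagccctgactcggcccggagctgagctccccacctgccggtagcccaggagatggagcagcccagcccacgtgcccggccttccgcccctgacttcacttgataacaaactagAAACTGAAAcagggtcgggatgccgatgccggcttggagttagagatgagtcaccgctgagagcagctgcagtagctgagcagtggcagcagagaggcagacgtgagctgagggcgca
ISG20 had 205, 213 and 196 CPM under the combination and 324, 474 and 510 CPM in the control (−1.09 ± 0.15, edgeR adjusted p = 1.6e-05). The promoter of the falling gene thus held the same core as those of the rising genes, at position −68. OASL, the other member that fell, had 1268, 1132 and 1273 CPM under the combination and 1152, 1792 and 1804 CPM in the control, and it lost its call in 9 alternatives, among them those without any 1 of the 3 combination libraries and without control library 2 or 3. Without control library 1, 4 effectors fell.

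The interferon genes were measured directly too. IFNB1 (chr9:21077105-21077963), the interferon beta gene, had 10.2, 7.55 and 9.31 CPM under the combination and 2.87, 6.11 and 6.4 CPM in the control (0.83 ± 0.24, edgeR adjusted p = 0.00892). IFNL3 had 29.3, 27.5 and 31.3 CPM under the combination and 8.7, 15.4 and 14 CPM in the control (1.22 ± 0.20), and its near-identical neighbour IFNL2 had 26.1, 24.3 and 28.1 CPM under the combination and 6.36, 13.1 and 11.6 CPM in the control (1.35 ± 0.23). CCL5 (chr17:35871491-35880793), a chemokine for T cells, had 717, 679 and 781 CPM under the combination and 182, 442 and 424 CPM in the control (1.06 ± 0.23, edgeR adjusted p = 0.00101). Control library 1 was the lowest of its group in all 4, yet every combination library lay above every control library, as in 30.7% of all tested genes.

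Of 24 tested chemokines and cytokines 12 fell, 5 rose and 7 were not called (median −0.53). IL11, a cytokine of the IL6 family, had 20.4, 16.9 and 19.4 CPM under the combination and 266, 316 and 323 CPM in the control (−4.00 ± 0.16). IL6 had 10.6, 8.88 and 9.89 CPM under the combination and 41.5, 68.9 and 77.5 CPM in the control (−2.68 ± 0.20), and LIF had 42.7, 42.2 and 45.6 CPM under the combination and 120, 121 and 117 CPM in the control (−1.45 ± 0.10). CXCL8, a neutrophil chemokine, fell (−2.02 ± 0.26). Among NF-kB subunits and targets 12 of 28 fell and 5 rose (median −0.22). TNFAIP3, a feedback inhibitor of NF-kB, had 29.7, 31.1 and 27.8 CPM under the combination and 69.7, 93.7 and 85 CPM in the control (−1.48 ± 0.11), whereas TNFAIP2 rose by 0.85 ± 0.10 and BCL3 by 0.86 ± 0.13.

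Genes that present antigen on MHC class I rose in 12 of 21 tested members and fell in 2 (median 0.32), none by 2-fold. Only 1 fell without combination library 2. NLRC5, the activator of the class I genes, had 60, 61.1 and 60.2 CPM under the combination and 36.2, 36.9 and 40.1 CPM in the control (0.68 ± 0.08). TAP1, a chain of the peptide transporter, had 260, 250 and 253 CPM under the combination and 123, 140 and 158 CPM in the control (0.86 ± 0.11), while TAP2, which encodes the other chain, fell (−0.81 ± 0.11). HLA-E rose by 0.77 ± 0.11. Of the class II list, 3 of 11 genes passed the filter, and HLA-DMA rose by 1.15 ± 0.17.

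Ligands of immune checkpoints and of NKG2D were divided, with 7 of 21 higher and 9 lower (median 0.02). Galectin-9 (LGALS9) rose to 32.6, 33.9 and 30.8 CPM, against 3.39, 5.64 and 5.7 CPM in the control (2.75 ± 0.16, edgeR adjusted p = 2.5e-09). VTCN1, an inhibitory B7 family member, rose to 7.47, 5.95 and 7.51 CPM, against 0.99, 1.14 and 0.278 CPM in the control (3.08 ± 0.28). The PD-1 ligands fell, CD274 (PD-L1) to 1.52, 1.42 and 1.16 CPM, against 2.87, 3.63 and 3.2 CPM in the control (−1.23 ± 0.23), and PDCD1LG2 (PD-L2) too (−1.93 ± 0.26). PVR, a ligand of TIGIT and of DNAM-1, fell (−1.14 ± 0.09). Levels of CD274 and PDCD1LG2 were low in both groups.

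The BCL2 family, which sets the threshold of apoptosis, moved both ways, with 6 of 21 tested genes higher and 9 lower (median −0.03). BMF (chr15:40087890-40108892), a BH3-only gene, had 72.3, 68.8 and 71.8 CPM under the combination and 13.5, 13.8 and 15.2 CPM in the control (2.33 ± 0.10, edgeR adjusted p = 5.88e-11). BCL2L11, which encodes the BH3-only protein BIM, a mediator of death after EGFR inhibition, had 44.8, 46 and 45.1 CPM under the combination and 18.2, 21.1 and 22.4 CPM in the control (1.14 ± 0.10). PMAIP1, which encodes the BH3-only protein NOXA, fell to 22.1, 24.3 and 22.6 CPM, against 42.5, 53.1 and 51.9 CPM in the control (−1.10 ± 0.12). The survival genes BCL2L1 (BCL-XL) and BCL2L2 (BCL-W) fell (−0.63 ± 0.09 and −0.65 ± 0.10). MCL1 had 71.6, 80.6 and 75.3 CPM under the combination and 96.7, 110 and 96.1 CPM in the control (−0.41 ± 0.13), a call that was lost without combination library 1 or control library 2.

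The gene of the death ligand TRAIL and the receptor genes TNFRSF10A and TNFRSF10B moved apart. TNFSF10, the TRAIL gene, had 23.3, 29.5 and 22.3 CPM under the combination and 1.35, 2.75 and 1.18 CPM in the control (3.84 ± 0.23, edgeR adjusted p = 2.34e-09). The receptor gene TNFRSF10A fell to 6.33, 7.37 and 6.84 CPM, against 19.3, 20.2 and 18.7 CPM in the control (−1.50 ± 0.13). TNFRSF10B fell to 62.5, 56.3 and 59 CPM, against 89.9, 98 and 93.5 CPM in the control (−0.66 ± 0.08). A further receptor gene, TNFRSF10D, was not called. CASP10, an initiator caspase, rose by 0.85 ± 0.11. Over the whole list of 29 tested genes 9 rose and 5 fell (median 0.05), and 3 fell without combination library 1.

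Airway secretory and acute phase genes rose in 15 of 23 tested members and fell in 7 (median 0.96). SAA1, an acute phase protein, had 36.8, 33.9 and 34.9 CPM under the combination and 2.92, 2.82 and 3.34 CPM in the control (3.54 ± 0.16, edgeR adjusted p = 7.36e-11). BPIFB1, a secreted defence protein of airways, had 18.3, 19.5 and 16.9 CPM under the combination and 1.04, 1.81 and 1.53 CPM in the control (3.66 ± 0.19), and the complement gene C1R had 80.6, 76 and 79.3 CPM under the combination and 13.9, 18.7 and 17.5 CPM in the control (2.24 ± 0.11). The largest falls of the list were TCN1, a vitamin B12 carrier (−3.77 ± 0.24), and PI3, the elastase inhibitor elafin. PI3 had 13.2, 12.8 and 12.5 CPM under the combination and 117, 203 and 203 CPM in the control (−3.76 ± 0.20).

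Stress keratins and some precursors of the cornified envelope, the shell of squamous cells, were among the largest falls. KRT6A, induced in wounded epithelium, had 4.9, 3.8 and 4.95 CPM under the combination and 141, 106 and 115 CPM in the control (−4.73 ± 0.15, edgeR adjusted p = 9.48e-13), and its near-identical copy KRT6B fell too (−3.77 ± 0.15). Reads may be split between such copies, KRT6A and KRT6B or SPRR1B and SPRR1A. SPRR1B, an envelope precursor with the largest fall among protein-coding genes at a mean of 5 CPM or more, had 0.571, 0.183 and 0.436 CPM under the combination and 29.6, 33.9 and 28.4 CPM in the control (−6.26 ± 0.26, edgeR adjusted p = 3.13e-11). S100A2 had 7.37, 6.64 and 9.07 CPM under the combination and 33.8, 35.5 and 36.4 CPM in the control (−2.20 ± 0.20). KRT4, a keratin of mucosal epithelium, had the largest rise by the same rule, at 16.9, 20.1 and 18 CPM under the combination and 0.938, 0.738 and 1.18 CPM in the control (4.26 ± 0.19, edgeR adjusted p = 9.01e-11). Of 18 tested keratins 8 fell and 4 rose (median −0.47), and of 26 squamous genes 12 fell and 7 rose (median −0.06).

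Genes of cell adhesion moved both ways. LAMA3, a laminin chain, fell (−1.68 ± 0.10), and COL17A1, a collagen of hemidesmosomes, had 3, 2.56 and 2.76 CPM under the combination and 24.1, 23.2 and 23.8 CPM in the control (−3.09 ± 0.14, edgeR adjusted p = 7.36e-11). Of 13 tested integrins 4 rose and 4 fell (median −0.13), with ITGA2 and ITGA6 among those that fell (−1.44 ± 0.18 and −1.16 ± 0.17), and 2 rose without control library 1. CLDN3, a claudin of tight junctions, rose to 128, 125 and 126 CPM, against 57.9, 64.2 and 67.5 CPM in the control (1.00 ± 0.12), and TJP3 by 1.10 ± 0.13. FN1, which encodes fibronectin, had 2359, 2102 and 1889 CPM under the combination and 3256, 4729 and 5206 CPM in the control (−1.05 ± 0.15). In the list of mesenchymal and TGF-beta genes 15 of 41 fell and 10 rose (median −0.10), with COL12A1 (1.91 ± 0.21) and TGFBR1 (1.69 ± 0.19) among the risers. COL1A1, a fibrillar collagen that also marks fibroblasts, had 21.7, 22.6 and 21.2 CPM under the combination and 12.4, 17.4 and 17 CPM in the control (0.49 ± 0.13).

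Wnt ligands changed in both directions. WNT3A had 15.3, 16.7 and 14.3 CPM under the combination and 3.44, 4.03 and 5.01 CPM in the control (1.90 ± 0.17), and WNT4 had 15.4, 15.9 and 17.1 CPM under the combination and 2.92, 5.5 and 5.21 CPM in the control (1.85 ± 0.19). WNT7A had 6.09, 5.68 and 6.35 CPM under the combination and 25.4, 23.3 and 27.1 CPM in the control (−2.06 ± 0.18), and the secreted antagonist DKK1 fell (−1.28 ± 0.15). TCF7L1, a repressor of Wnt targets, rose by 1.47 ± 0.10. Of 33 tested members 15 rose and 9 fell (median 0.27).

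Stress pathways separated. Targets of ATF4, the factor of amino acid shortage, fell in 18 of 34 tested members and rose in 3 (median −0.27). CHAC1, which degrades glutathione, had 18.1, 17.6 and 20.3 CPM under the combination and 56.3, 56.4 and 60.5 CPM in the control (−1.63 ± 0.12), and the arginine transporter gene SLC7A1 had 102, 101 and 98.3 CPM under the combination and 234, 197 and 222 CPM in the control (−1.12 ± 0.09). NUPR1, a stress-induced nuclear protein, rose to 37.2, 39.5 and 34.9 CPM, against 5.11, 7.12 and 7.37 CPM in the control (2.52 ± 0.22). Genes of the endoplasmic reticulum and its unfolded protein response rose in 10 of 24 and fell in 1 (median 0.20). HERPUD1, which aids degradation at that membrane, had 135, 127 and 134 CPM under the combination and 63.4, 68.9 and 70.9 CPM in the control (0.96 ± 0.09).

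Redox genes that NRF2 drives rose in 14 of 28 and fell in 3 (median 0.27), and 8 or 9 rose when combination library 1 or 3 or control library 1 was left out. TKT, the transketolase of the pentose phosphate pathway, had the largest gain in CPM of all called protein-coding genes, with 5050, 4832 and 5084 CPM under the combination and 2214, 2453 and 2686 CPM in the control (1.03 ± 0.13). GPX2, a glutathione peroxidase, had 922, 909 and 1041 CPM under the combination and 438, 534 and 529 CPM in the control (0.94 ± 0.12). TXN, which encodes thioredoxin, fell (−0.51 ± 0.09). The 11 members that were not called included the NRF2 targets NQO1, GCLM, SRXN1, SLC7A11 and AKR1C1. CPM are not divided by transcript length, so such gains do not rank transcripts by number.

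The combination was then set against each drug alone in the same fit. These comparisons share the combination libraries with the comparison above, so they are not independent of it. Against almonertinib 2570 genes (20.1%) were called, 1324 higher (10.3%) and 1246 lower (9.74%), with a median log2 fold change of −0.039. Against paclitaxel 5643 genes (44.1%) were called, 2777 higher (21.7%) and 2866 lower (22.4%), with a median of −0.050. List counts against a single drug are to be read beside these shares. The number called against almonertinib depended on single libraries, with 1274 without combination library 1, 1616 without combination library 3 and 4184 without almonertinib library 3. Almonertinib library 3 stood apart from the other almonertinib libraries in the dependence of its counts on GC content. Across genes, the Spearman correlation of GC content with a library's deviation from the PC9 mean was 0.490 in almonertinib library 3, against −0.284 and −0.282 in almonertinib libraries 1 and 2. It was −0.0181 to 0.327 in the combination libraries and −0.590 to −0.415 in the paclitaxel libraries.

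The S phase genes were lower than under paclitaxel in all 55 tested members (median −1.08), against 22.4% of all tested genes. They were lower than under almonertinib in 16 and higher in 1 (median −0.28), against 9.74% and 10.3%. RRM2 had 41.7, 46 and 39.9 CPM under the combination, 60.8, 59.7 and 55.8 CPM under almonertinib, 170, 154 and 150 CPM under paclitaxel and 152, 128 and 124 CPM in the control. The paclitaxel libraries of RRM2 overlapped the range of the control at its upper end, and the combination was below both single drugs (−1.89 ± 0.10 against paclitaxel and −0.47 ± 0.10 against almonertinib). With a trend on length and GC content removed, 54 were lower than under paclitaxel. The number lower than under almonertinib was 26 with that trend removed, 8 without combination library 1 and 10 without combination library 3. Of the mitotic genes 26 of 45 were lower than under almonertinib, and 13 without combination library 1, 15 without combination library 3 and 15 without almonertinib library 2.

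Recombination genes also stood apart from paclitaxel. Paclitaxel alone raised 23 of 33 and lowered 2 relative to the control, against 27% and 28% of all tested genes, whereas 27 were lower under the combination than under paclitaxel (1 higher, median −1.0). RAD54L had 27.8, 28.8 and 26.6 CPM under the combination, 21.1, 23 and 26.1 CPM under almonertinib, 72.4, 69.3 and 71.9 CPM under paclitaxel and 46.1, 44.2 and 43.2 CPM in the control. Its paclitaxel libraries were the highest and its almonertinib and combination libraries the lowest (−1.36 ± 0.09 against paclitaxel).

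EGFR output was lower than under paclitaxel in 24 of 38 genes and higher in 2, against 22.4% and 21.7% of all tested genes. Compared with almonertinib it was lower in 10 and higher in 4, against 9.74% and 10.3%. DUSP6 had 5.8, 6.18 and 6.74 CPM under the combination, 18.6, 15.9 and 14.2 CPM under almonertinib, 41.2, 36.9 and 31.6 CPM under paclitaxel and 42.4, 47.5 and 51 CPM in the control. It was below both single drugs (−1.38 ± 0.14 against almonertinib and −2.55 ± 0.14 against paclitaxel, edgeR adjusted p = 4.21e-06 and 3.25e-09). EPHA2 and MYC were also below both, with −1.01 ± 0.10 and −0.62 ± 0.10 against almonertinib and −0.88 ± 0.10 and −0.93 ± 0.10 against paclitaxel. AREG and HBEGF differed from almonertinib by 0.26 ± 0.17 and 0.15 ± 0.17, which was not called.

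BMF and BCL2L11 were above either drug alone. BMF had 72.3, 68.8 and 71.8 CPM under the combination, 43.1, 47.9 and 52.8 CPM under almonertinib, 27.3, 29.9 and 27 CPM under paclitaxel and 13.5, 13.8 and 15.2 CPM in the control. Its 4 groups did not overlap, and the combination exceeded almonertinib by 0.57 ± 0.09 and paclitaxel by 1.34 ± 0.09. BCL2L11 had 44.8, 46 and 45.1 CPM under the combination, 29.8, 30.1 and 25.2 CPM under almonertinib, 29.5, 28.1 and 26.5 CPM under paclitaxel and 18.2, 21.1 and 22.4 CPM in the control. It exceeded almonertinib by 0.68 ± 0.10 and paclitaxel by 0.69 ± 0.10. Both calls held in all 14 alternatives computed for these comparisons.

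**Figure D4:**
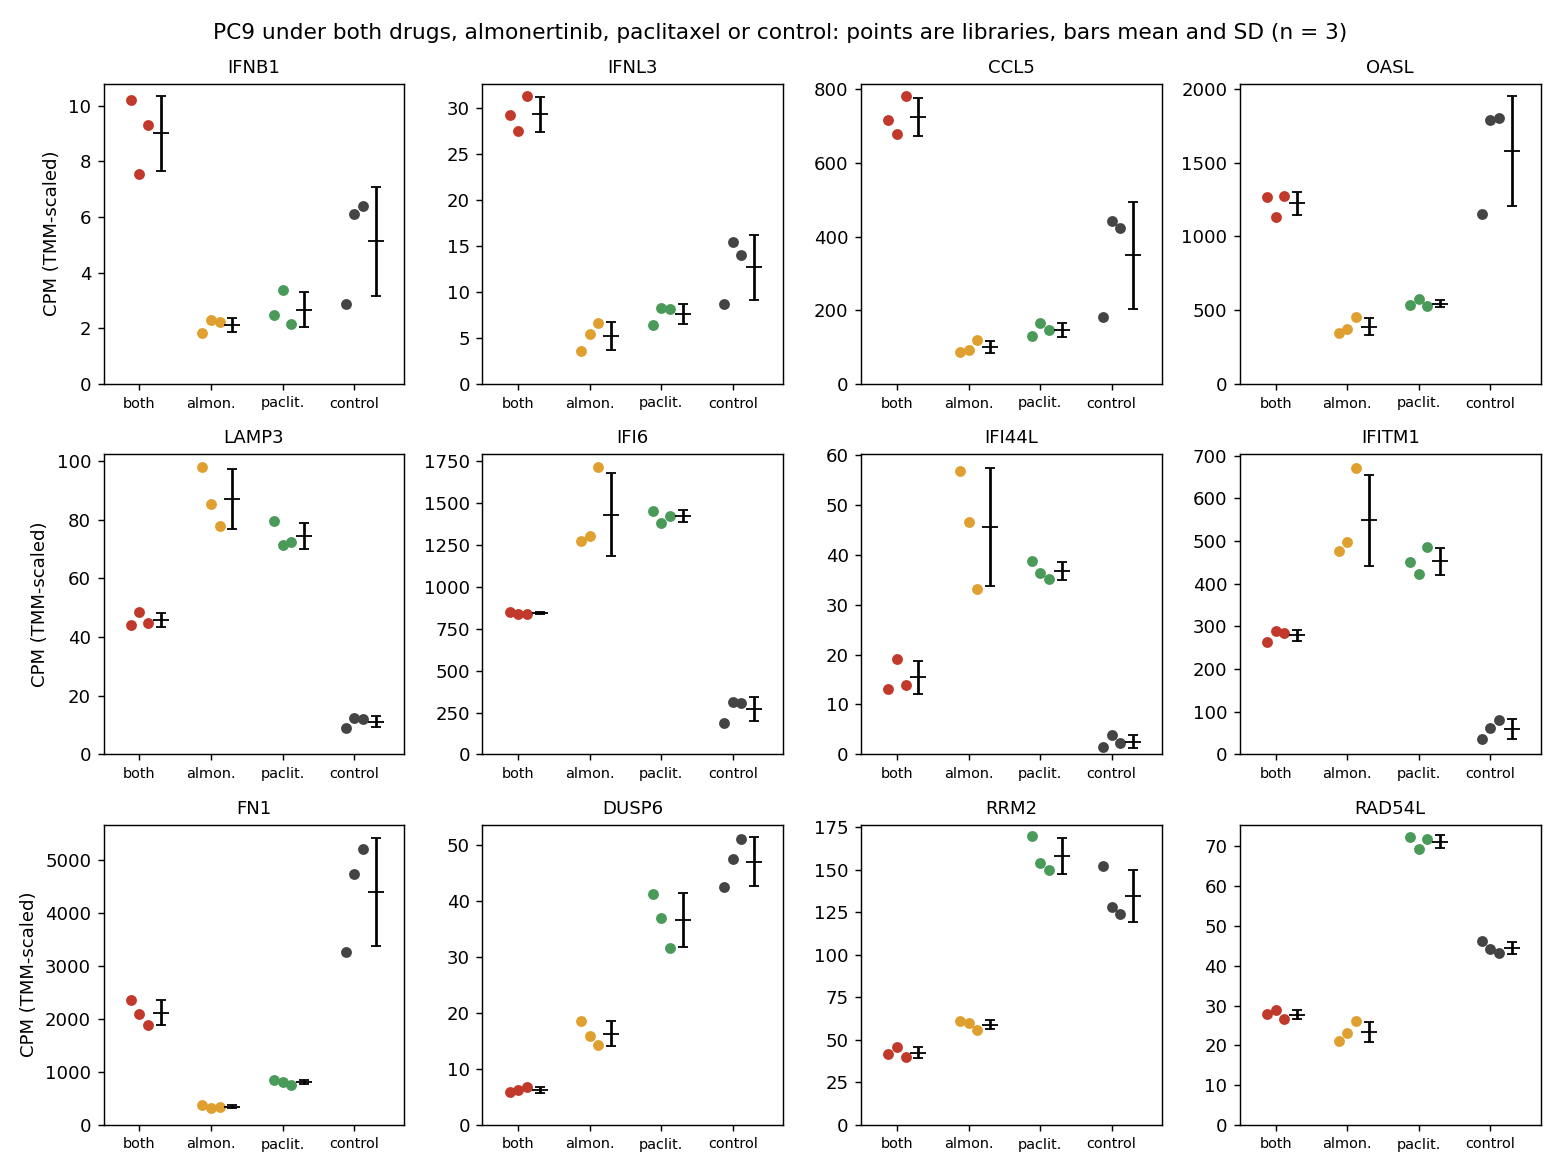
CPM of 12 genes in PC9 under both drugs (red), almonertinib (orange), paclitaxel (green) and control (grey), with points for the 3 libraries of a group and bars for the mean and SD. IFNB1, IFNL3 and CCL5 are highest under both drugs, an order set by the rule that named them. LAMP3, IFI6, IFI44L and IFITM1 lie under both drugs between the control and the single drugs. FN1 lies between the single drugs and the control.

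Of 53 interferon effectors 36 were lower and 6 higher under the combination than under almonertinib (median −0.75), against 9.74% and 10.3% of all tested genes. Against paclitaxel 25 were lower and 11 higher (median −0.26), against 22.4% and 21.7%. LAMP3 had 44.2, 48.7 and 44.9 CPM under the combination, 97.9, 85.4 and 77.9 CPM under almonertinib, 79.4, 71.3 and 72.3 CPM under paclitaxel and 8.96, 12.4 and 12.2 CPM in the control. IFI6 had 850, 838 and 841 CPM under the combination, 1272, 1307 and 1717 CPM under almonertinib, 1456, 1384 and 1425 CPM under paclitaxel and 186, 313 and 308 CPM in the control. For both, the combination lay above the control and below each single drug, at −0.92 ± 0.11 for LAMP3 and −0.76 ± 0.16 for IFI6 against almonertinib and −0.69 ± 0.11 and −0.75 ± 0.16 against paclitaxel. IFI44L had 13.2, 19.2 and 13.9 CPM under the combination, 56.8, 46.6 and 33.2 CPM under almonertinib, 38.7, 36.4 and 35.1 CPM under paclitaxel and 1.41, 3.89 and 2.29 CPM in the control. IFI44L and IFITM1 thus had the same order, and all 4 genes kept these calls in all 14 alternatives.

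The interferon genes and CCL5 were higher under the combination than under either single drug, and differed in their relation to the control. IFNB1 had 10.2, 7.55 and 9.31 CPM under the combination, 1.83, 2.28 and 2.24 CPM under almonertinib, 2.46, 3.37 and 2.17 CPM under paclitaxel and 2.87, 6.11 and 6.4 CPM in the control. IFNL3 had 29.3, 27.5 and 31.3 CPM under the combination, 3.56, 5.47 and 6.61 CPM under almonertinib, 6.37, 8.31 and 8.17 CPM under paclitaxel and 8.7, 15.4 and 14 CPM in the control. CCL5 had 717, 679 and 781 CPM under the combination, 87.5, 92.2 and 118 CPM under almonertinib, 129, 165 and 146 CPM under paclitaxel and 182, 442 and 424 CPM in the control. All 3 combination libraries lay above every other library in each of these genes. The genes were named by the rule for the largest differences above both single drugs and the control. Their order and the size of their p-values thus followed from that choice. For IFNB1, IFNL3 and CCL5 the log2 fold changes were 2.08 ± 0.26, 2.49 ± 0.21 and 2.87 ± 0.24 against almonertinib and 1.75 ± 0.25, 1.95 ± 0.20 and 2.31 ± 0.23 against paclitaxel. The edgeR adjusted p-values were 4.05e-05, 9.33e-07 and 7.41e-07 against almonertinib and 4.13e-05, 2.21e-06 and 1.53e-06 against paclitaxel. IFNL1 had 119, 113 and 125 CPM under the combination, 22.5, 20.9 and 32.6 CPM under almonertinib, 47.4, 55.6 and 55.2 CPM under paclitaxel and 117, 295 and 271 CPM in the control, so that the combination was above both single drugs (2.24 ± 0.25 and 1.18 ± 0.24) and below the control, with overlap. For OASL the combination was above both single drugs (1.65 ± 0.15 and 1.17 ± 0.15) and below the control (−0.37 ± 0.15, a call that depended on single libraries), and for ISG20 it was above both (1.08 ± 0.15 and 0.81 ± 0.15) and below the control.

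Several genes outside immunity were also higher under the combination than under either drug. FN1 had 2359, 2102 and 1889 CPM under the combination, 372, 316 and 329 CPM under almonertinib, 846, 817 and 759 CPM under paclitaxel and 3256, 4729 and 5206 CPM in the control. The combination lay between the single drugs and the control (2.64 ± 0.15 against almonertinib and 1.39 ± 0.15 against paclitaxel). KLF4, an epithelial transcription factor, and GRB10, an adaptor that restrains insulin receptors, had the same order (1.94 ± 0.11 and 2.24 ± 0.10 against almonertinib, 0.46 ± 0.10 and 0.53 ± 0.10 against paclitaxel). HCAR2, a receptor for ketone bodies, had 24.3, 21 and 21.6 CPM under the combination, 6.81, 7.24 and 8.8 CPM under almonertinib, 5.26, 5.27 and 6.15 CPM under paclitaxel and 4.43, 7.65 and 7.37 CPM in the control, and was above all 3. COL5A1, NR2F1 and SYNM were above all 3 as well, with 0.59 ± 0.11, 0.85 ± 0.16 and 0.92 ± 0.16 against the control. HCAR2, COL5A1, NR2F1 and SYNM were named by the rule for such genes, so their order followed from that choice.

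Among the genes below both single drugs and the control, CXCL8 had 3.61, 4.35 and 3.64 CPM under the combination, 11.8, 16.1 and 6.03 CPM under almonertinib, 21.7, 18.3 and 18.9 CPM under paclitaxel and 12.6, 17.9 and 16.7 CPM in the control. DKK1 had 13.4, 14.1 and 13 CPM under the combination, 49.3, 44.8 and 37.3 CPM under almonertinib, 36.4, 24.4 and 31.2 CPM under paclitaxel and 38.6, 31.2 and 28 CPM in the control. Their combination libraries lay below all 9 others. GDF15 was also lower (−0.88 ± 0.14 against almonertinib and −2.06 ± 0.14 against paclitaxel). The rule that named such genes chose those furthest below both single drugs and the control, so this order followed from it.

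Genes of the endoplasmic reticulum were mostly above either single drug. Of 24 tested members 16 were higher and none lower than under almonertinib (median 0.58), against 10.3% and 9.74% of all tested genes. Compared with paclitaxel 15 were higher and 2 lower (median 0.37), against 21.7% and 22.4%. HERPUD1 had 135, 127 and 134 CPM under the combination, 57.3, 69.9 and 62 CPM under almonertinib, 63.6, 63.6 and 64.3 CPM under paclitaxel and 63.4, 68.9 and 70.9 CPM in the control. The combination stood above the other 3 groups (1.06 ± 0.09 against almonertinib and 1.05 ± 0.09 against paclitaxel), whereas the single-drug libraries, at 57.3 to 69.9 CPM, overlapped the control. SEC24D, a coat protein of transport vesicles, rose against both in the same way (0.61 ± 0.12 and 0.85 ± 0.12). ATF4 targets were higher than under almonertinib in 17 of 34 (1 lower) and lower than under paclitaxel in 22 (4 higher).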

How the data were processed

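Total RNA came from a TRIzol extraction and was sequenced after a SMART-RNAseq library kit, per the labels' protocols. Raw counts per gene were deposited by the authors, who used HISAT2 2.2.1 and HTSeq on GRCh38, per the submitters' processing notes. The strand setting, annotation and HTSeq version are not given in the sources used here, so reads of antisense neighbours cannot be told apart. Symbols and positions came from GENCODE v29 and a gene name table.

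The 12 PC9 libraries (15708473 counts or more in the compared groups) were fitted together in edgeR 4.0.16 (R 4.3.3) with TMM scaling, filterByExpr and the quasi-likelihood test, without a replicate block. Genes with a Benjamini-Hochberg adjusted p under 0.05 over 12796 genes were called. The ± after a fold change is its size divided by the square root of F, a rough standard error. CPM used TMM-scaled library sizes. In simulated data for this comparison on 12662 genes, 85% of 2-fold and 99% of 4-fold changes were recovered and 3.19% of calls were false. The simulation changed 200 genes in the combination group alone and gave the other groups equal means. It held no library that stood apart and no length or GC trend. In the data 50.7% of genes were called, so the simulated share does not measure false calls there. Named genes were the 15 largest called protein-coding rises and falls at 5 CPM or more without overlap, the 10 largest CPM changes each way, up to 3 risers and 3 fallers per list by p, 10 genes beyond both single drugs and the control each way, and a set of followed genes. The members and the 60 lists were chosen with earlier results of these data known. Alternatives used DESeq2 1.42.0, other scaling, filters, sample sets, a length and GC trend, a replicate block and libraries left out. RefSeq promoters (GRCh38.p14) were searched for motif words.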

Additional observations from a re-analysis of the deposited data

How the results depend on the processing

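The number of genes called against the control was 6489, 4821 with all 24 libraries in the fit, 7309 with a trend on length and GC content removed, 7597 without almonertinib library 3 (chosen after seeing the data), 6376 with DESeq2, of which 6236 were called by edgeR in the same direction, and 5353 to 5915 when 1 compared library was left out. A stricter filter on low counts left 494 genes at least 2-fold higher and 312 lower, in place of 965 and 636, with fewer genes tested. Leaving out 1 library gave 886 to 1103 higher and 591 to 672 lower. Against almonertinib, 2570 genes became 918 with all 24 libraries, 1318 with only the 6 libraries compared, and 1274 to 4184 when 1 library was left out, the cause of which was not tested. Against paclitaxel, 5643 became 3734 with all 24 libraries and 4263 to 5289 when 1 library was left out.

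Libraries share only a replicate number: the deviations of same-numbered combination and control libraries correlated at −0.0721, 0.174 and 0.203. With the replicate number as a block, 7076 genes were called against the control, 3385 against almonertinib and 6468 against paclitaxel.

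Of 342 named genes tested, 337 were called. Of these, 284 kept the call in each of the 15 alternatives that gave the gene an adjusted p. Alternatives that filtered a gene out were not counted as a loss. The other 53 lost it in at least 1 and 31 in at least 3, and none changed direction. Genes below the filter on low counts, ABCB1 and PTPRC among them, have no value, and at this depth low expression and absence were not separated.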

Other observations

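Single proteases, chromatin genes and metabolic genes also changed. Among matrix proteases and plasminogen genes 6 of 18 rose and 8 fell (median log2 fold change −0.14). MMP13, a collagenase, had 6.23, 7 and 7.51 CPM under the combination and 0.365, 0.604 and 0.765 CPM in the control (3.61 ± 0.32). PLAT, the tissue plasminogen activator, had 40.2, 34.8 and 36.8 CPM under the combination and 9.38, 11.9 and 11.6 CPM in the control (1.77 ± 0.15), whereas PLAU, the urokinase, had 69.7, 68.5 and 70.1 CPM under the combination and 126, 132 and 140 CPM in the control (−0.93 ± 0.08). The 2 activators thus moved in opposite directions, and the inhibitors TIMP3 and TIMP1 fell (−1.29 ± 0.10 and −0.80 ± 0.12). Among YAP and TEAD targets CCN1 and F3 fell alike (−1.47 ± 0.11 and −1.47 ± 0.10). Of 38 chromatin genes 10 rose and 8 fell, near the 24.7% higher and 26% lower of all tested genes. In this list HMGA2 had 20.4, 23.9 and 19.2 CPM under the combination and 73.5, 52.6 and 47.3 CPM in the control (−1.45 ± 0.16). The deacetylase gene HDAC5 had 209, 202 and 213 CPM under the combination and 75.4, 82.3 and 90 CPM in the control (1.33 ± 0.11). The histone variant gene H2AZ1 fell (−1.08 ± 0.11) and the linker histone gene H1-2 rose (0.72 ± 0.13), with reads of near-identical histone genes possibly shared.

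Of 10 tested ABC transporters 5 rose and none fell (median 0.31), ABCC5 to 147, 131 and 138 CPM, against 72.8, 79.1 and 81 CPM in the control (0.84 ± 0.08). PDK4, a FOXO target that limits pyruvate oxidation, had 2.76, 3.62 and 3.1 CPM under the combination and 1.2, 0.806 and 1.04 CPM in the control (1.62 ± 0.23), while its relative PDK1 fell (−0.92 ± 0.15). The lysosomal proteases split, CTSH rising (1.26 ± 0.12) and CTSL falling (−1.04 ± 0.10). The lung lineage factor NKX2-1 was weakly expressed, at 0.65 ± 0.27 CPM under the combination and 0.303 ± 0.133 CPM in the control (SD, n = 3), and was not called (1.14 ± 0.52, edgeR adjusted p = 0.0791), while CEBPA rose (1.06 ± 0.11). Among the 15 largest risers ESPN, an actin bundler, had 26.9, 24.9 and 25.5 CPM under the combination and 2.5, 2.62 and 3.61 CPM in the control (3.15 ± 0.18). Among the 15 largest fallers IL1RL1, the receptor of IL33, had 0.618, 0.412 and 0.727 CPM under the combination and 15.2, 14.5 and 14.3 CPM in the control (−4.64 ± 0.21), and G0S2, an inhibitor of fat breakdown, had 0.381, 0.32 and 0.436 CPM under the combination and 11.1, 14 and 15.5 CPM in the control (−5.13 ± 0.27).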
